A study of Callithrix jacchus with 4 samples.

Results

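Injured oligodendrocyte nuclei with at least 1 IGFBP3 UMI were examined in the primary visual cortex (V1) of the marmoset, and are called IGFBP3+ Oligo nuclei here. They were chosen by their measured IGFBP3 count: a nucleus of the injured cohort that the authors annotated as Oligo, with 1000 or more UMIs in all (UMIs, unique molecular identifiers, tag single captured transcripts), was a member when 1 or more of its UMIs came from IGFBP3. This gave 390 nuclei, 120 from animal F1565, 129 from F1619 and 141 from F1711, out of 2318 injured Oligo nuclei of that depth, 29537 injured nuclei and 38147 nuclei in all. The 1928 injured Oligo nuclei of the same depth with no IGFBP3 UMI (868, 564 and 496 in the 3 animals) are called IGFBP3- Oligo nuclei.

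The study profiled nuclei by droplet single-nuclei RNA sequencing in adult marmosets (Callithrix jacchus). The injured cohort was 3 adults that received endothelin-1 (a vasoconstrictor) in V1, with grey matter taken 7 days later (core and penumbra included, white matter and calcarine V1 left out), and each animal gave 1 library. The control cohort was 3 uninjured adults whose V1 nuclei went into 1 pooled library, which gives no spread between animals. The cohorts also differed in how nuclei were isolated, where and on which instrument they were sequenced, and how doublets were removed. These effects cannot be told apart from that of the injury, so control levels are given as values only.

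Oligodendrocytes wrap axons in myelin and arise from oligodendrocyte precursor cells (OPC). IGFBP3 is a secreted protein that binds the insulin-like growth factors IGF1 and IGF2 and so sets how much of them can reach the receptor IGF1R. It is also known as a target of hypoxia, p53 and TGF-beta signalling, and as a product of endothelial and mesenchymal cells.

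The 4 libraries held 7500 to 12527 nuclei and 22832703 to 48722394 UMIs, with a median of 3531 to 4504.5 UMIs per nucleus in the injured libraries and 2117 in the control library. The median IGFBP3+ Oligo nucleus held 2087.5, 3193 and 2612 UMIs in F1565, F1619 and F1711, and the median IGFBP3- Oligo nucleus 1997.5, 3072 and 2435, so members were slightly deeper in each animal. Members had a median of 1324, 1858 and 1513 genes detected, against 1255.5, 1714.5 and 1415. Of the 390 members, 380 lay in the largest of the 3 deposited clusters annotated as Oligo (cluster 15), 10 in cluster 10 and 0 of 19 nuclei in cluster 23. Libraries shared 15 to 27 cell barcodes per pair, and 1 member (from F1711) carried a barcode also present in the control library.

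The label as oligodendrocyte was checked against markers that the authors used, among them those that encode the myelin proteins MBP and MOBP, the galactolipid enzyme UGT8 and the transcription factor ST18. MBP stood at 1501, 2654 and 2854 CPM (UMIs scaled to 1e+06 per sum of nuclei) in IGFBP3+ nuclei of F1565, F1619 and F1711, and MOBP at 1214, 1514 and 2637 CPM. Summed UMIs of the markers of excitatory neurons reached 699 to 940 CPM over 7 genes in members and 755 to 1032 in IGFBP3- nuclei. For microglia and macrophages (7 genes) these were 287 to 400 CPM against 304 to 401, for astrocytes (6 genes) 199 to 247 against 222 to 267, and for endothelial cells (5 listed genes of 6) 136 to 168 against 124 to 188. For inhibitory neurons (5 genes) they were 24.97 to 59.7 against 39.5 to 56.5, for pericytes and fibroblasts (7 genes) 31.9 to 93.1 against 42.1 to 111, and for lymphocytes (5 listed genes of 6) 11.9 to 54.3 against 28.5 to 50.7. Only the OPC list (4 genes) was higher in members of every animal, at 159, 198 and 220 CPM against 121, 146 and 166. None of its 3 tested genes was called. With the 25% of nuclei highest in markers of other cells left out, 172 genes were called, against 127 with all nuclei in the comparison described next.

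Most members held a single IGFBP3 UMI. Exactly 1 was found in 262 of 390 members (67.2%), 2 or more in 128, 5 or more in 35, and the highest nucleus held 24. The 128 nuclei with 2 or more came from all 3 animals (51, 41 and 36) and held 66.4% of the 779 IGFBP3 UMIs. Just below the depth limit, 5 of 34 Oligo nuclei with 900 to 999 UMIs had an IGFBP3 UMI, and just above it 5 of 59 with 1000 to 1099.

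The share of injured Oligo nuclei with an IGFBP3 UMI was 12.1% in F1565 (exact 95% Clopper-Pearson interval 10.2 to 14.3%), 18.6% in F1619 (15.8 to 21.7%) and 22.1% in F1711 (19.0 to 25.6%), a mean of 17.6% ± 5.07 (SD, n = 3). Intervals cover counting error only. When every nucleus was thinned at random to 1000 UMIs, the share was 7.89%, 8.66% and 10.5% (9.02% ± 1.35). In the control library 2 of 467 Oligo nuclei had an IGFBP3 UMI, or 0.428% (0.0519 to 1.54%), both with 1 UMI. The control Oligo nuclei were shallower (median 1333 UMIs), and thinned to 1000 UMIs their share was also 0.428%.

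Free RNA in droplets can put a UMI in a nucleus that does not express a gene, which was not tested here. Thinning cannot settle this, since free RNA can make up a larger part of a shallow nucleus and is thinned with the rest. The share at the same 1000 UMIs is given beside other cell types as a description. It was 4.07%, 4.30% and 6.74% in Microglia, and 1.88%, 3.23% and 4.30% in excitatory neurons (ExN), for F1565, F1619 and F1711. In each of the 3 animals the interval for Oligo lay above that for Microglia. At the same depth 15.01%, 22.2% and 34.6% of OPC and 13.2%, 13.5% and 19.2% of endothelial (Endo) nuclei had an IGFBP3 UMI. OPC lay above Endo, Endo above Oligo and Oligo above Microglia within each of the 3 animals, with means of 23.9% ± 9.92 for OPC, 15.3% ± 3.38 for Endo and 5.04% ± 1.48 for Microglia. Thinned means were 3.99% in astrocytes and 3.56% in inhibitory neurons. Members were chosen without thinning, where these types came closer to Oligo. The mean share was then 17.6% in Oligo, 14.5% in inhibitory neurons, 13.7% in astrocytes, 13.4% in Microglia and 13.3% in ExN. These other types were deeper by median than Oligo in each animal. Unthinned intervals of Oligo and inhibitory neurons overlapped in each animal, and those of Oligo and Microglia in F1711 only. Nuclei with 2 or more UMIs made up 5.58% ± 0.383 of Oligo and 1.37% ± 0.766 of Microglia, without thinning. Results were therefore also split by the number of IGFBP3 UMIs.

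**Figure D1:**
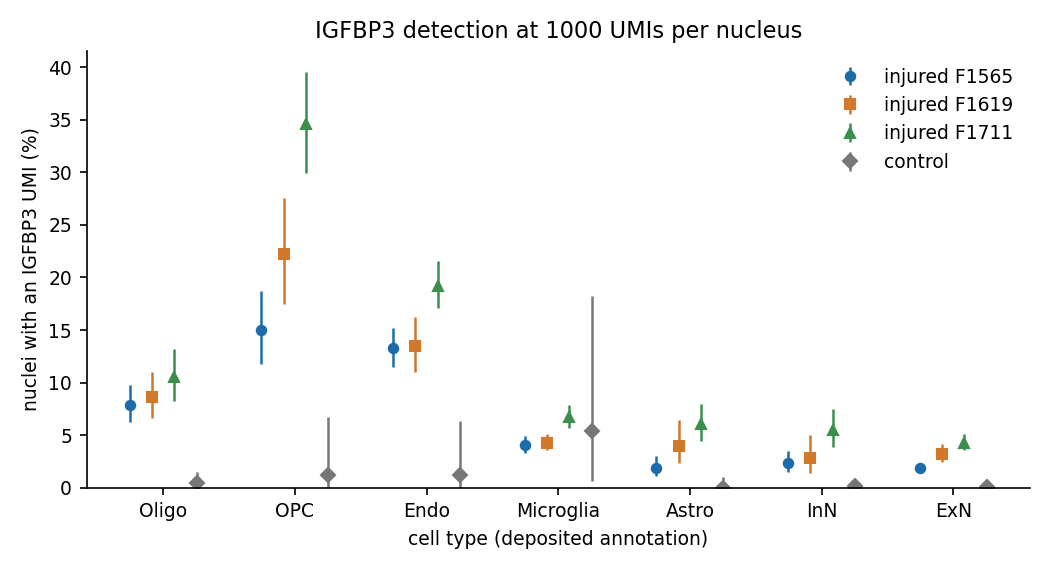
Percent of nuclei with at least 1 IGFBP3 UMI after thinning to 1000 UMIs, by cell type (x axis) and library (colours), with exact 95% intervals as bars. Oligo sits at 7.89 to 10.5% in the 3 injured animals, below OPC and above Microglia in each, and at 0.428% in the control library, where 2 of 37 Microglia had an IGFBP3 UMI.

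UMIs were summed over IGFBP3+ and over IGFBP3- Oligo nuclei of each animal and the sums were compared in edgeR (quasi-likelihood test), with animals as blocks and IGFBP3 left out. Calls required an adjusted p (Benjamini-Hochberg) under 0.01, a change of more than 0.25 on the natural-log scale in either direction, and detection in 10% or more of nuclei in one of the classes. Of 8590 genes tested 127 were called (1.48%), 75 higher (0.873%) and 52 lower (0.605%) in IGFBP3+ nuclei, and 122 of them moved the same way in all 3 animals. Among genes with a symbol the largest rises were those of IDO1, EMP1, ABCA1, CIITA and TNFRSF12A, and 8 of 19 tested injury-induced glial genes were called higher. The falls were smaller, and took in genes of mature oligodendrocytes such as ST18, GRM3, NINJ2 and PPP1R14A. Scaling by library size alone gave 94 calls, 70 higher and 24 lower. With each animal left out in turn the count was 52 (without F1565), 55 (without F1619) and 13 (without F1711, all 13 higher). DESeq2 called 20, all among the 127, and gave no adjusted p for 44 of the 127. The edgeR test without the animal as a block called 0, with 613 genes at an unadjusted p below 0.05.

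**Figure D2:**
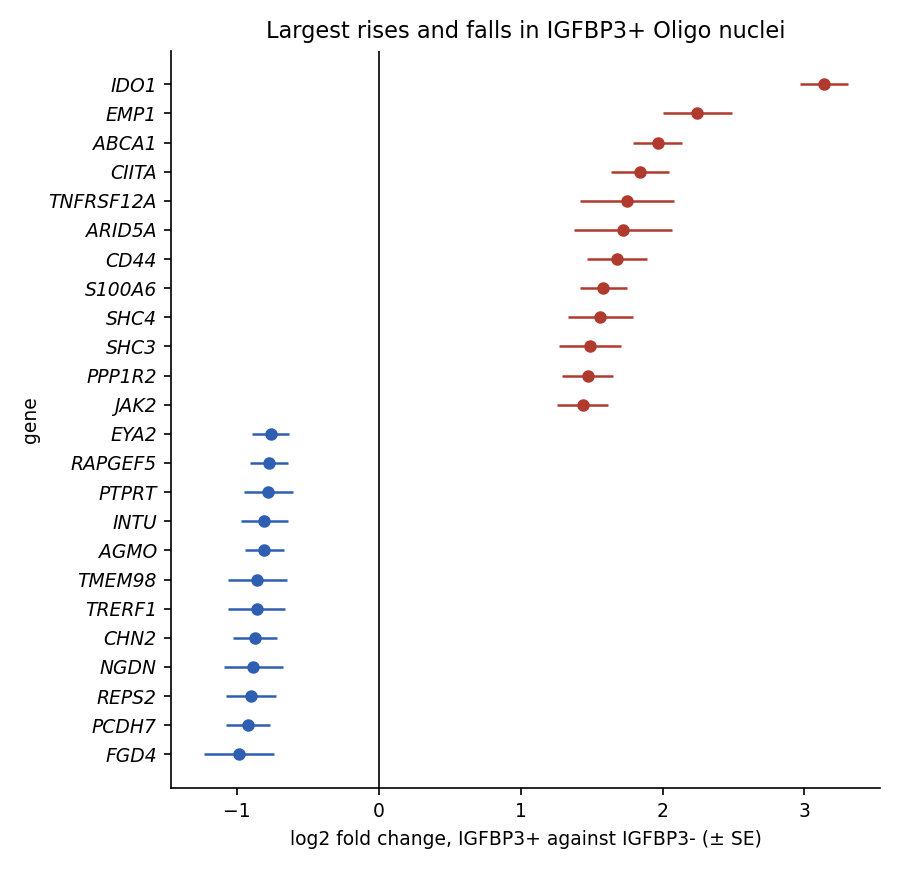
Fitted log2 fold change of IGFBP3+ against IGFBP3- injured Oligo nuclei (x axis, bars ± SE, edgeR on sums of 3 animals) for the 12 largest rises (red) and 12 largest falls (blue) among called genes with a symbol that moved the same way in all 3 animals. The rises run from 1.44 (JAK2) to 3.14 (IDO1) and the falls from -0.76 (EYA2) to -0.99 (FGD4).

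IDO1, the interferon-induced enzyme that opens tryptophan breakdown to kynurenine, rose most. Its level was 1103, 161 and 87.9 CPM in IGFBP3+ nuclei of F1565, F1619 and F1711 and 108, 25.8 and 6.34 CPM in IGFBP3- nuclei. It was higher within every animal, but animals differed widely and the lowest IGFBP3+ level lay below the highest IGFBP3- level. The log2 fold change was 3.14 (SE 0.17, edgeR adjusted p = 1.02e-26). ABCA1, which moves cholesterol out of the cell, was at 231, 338 and 129 CPM against 35.2, 75.1 and 60.2 CPM. Here the classes did not overlap (log2 fold change 1.97, SE 0.17, adjusted p = 2.1e-14). IDO1 and ABCA1 were also called with any animal left out, as were CIITA, GBP1 and PPP1R2.

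CIITA, the master regulator of MHC class II transcription, was at 235, 111 and 41.4 CPM against 57.1, 33.4 and 11.1 CPM (log2 fold change 1.84, SE 0.21, adjusted p = 1.28e-10). As with IDO1, F1565 had the highest and F1711 the lowest level in both classes, so the classes overlapped across animals while the CPM was higher in IGFBP3+ nuclei of each animal. JAK2, a kinase of cytokine receptors, rose by 1.44 (SE 0.18, adjusted p = 1.2e-08), from 89.1, 96.5 and 62.6 to 522, 173 and 95.7 CPM. Its rise was largest in F1565, and without that animal it was 0.70 and not called (adjusted p = 0.0485). DESeq2 did not call JAK2 (adjusted p = 0.227). ARID5A, an RNA-binding protein that stabilizes IL6 transcripts, rose by 1.72 (SE 0.34, adjusted p = 0.000503), with 12, 20 and 10 UMIs in the IGFBP3+ sums.

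The list of injury-induced glial genes held the largest share of calls among the lists examined, with 8 of 19 tested genes called higher, 0 lower and a median log2 fold change of 0.70, where the median over all genes tested was 0.00 and 0.873% were called higher. The count was 5, 7 and 0 of 19 without F1565, F1619 and F1711, and the median 0.71, 0.45 and 0.93. DESeq2 called 0 of the 4 members for which it gave an adjusted p, and edgeR without the animal block called 0 of 19. S100A6, a calcium-binding protein, was at 442, 307 and 181 CPM in members and 70.9, 166 and 59.4 CPM in IGFBP3- nuclei, with no overlap (log2 fold change 1.58, SE 0.17, adjusted p = 1.46e-11). CD44, the hyaluronan receptor, was at 131, 138 and 67.2 CPM against 22.9, 45.5 and 30.9 CPM, also without overlap (1.68, SE 0.21, adjusted p = 1.3e-08). EMP1, a membrane protein of the PMP22 family, rose by 2.24 (SE 0.24, adjusted p = 5.47e-11), from 17.1, 40.6 and 26.2 to 263, 118 and 62.0 CPM. Its rise was steepest in F1565, and without that animal it was 1.38. TNFRSF12A, the receptor of the cytokine TWEAK, rose by 1.75 (SE 0.33, adjusted p = 0.000178). It had 17, 26 and 9 UMIs in the IGFBP3+ sums and was detected in 10% of members, just at the limit for a call. The other called members were the tetraspanins CD63 (0.99) and CD9 (0.66), the protease inhibitor SERPINA3 (0.83) and the annexin ANXA5 (0.81). VIM (0.71, adjusted p = 0.0537) and KLF6 (0.86, adjusted p = 0.0183) were not called.

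The AP-1 and immediate early genes had 0 of 10 tested genes called and a median of 0.85. ATF3 had an adjusted p of 0.00488 (log2 fold change 1.34, higher in 2 of 3 animals) but was detected in too few nuclei to be called, and FOSL2 (1.81, adjusted p = 0.0106) and FOS (1.27, adjusted p = 0.0469) missed the threshold. For 2 or more IGFBP3 UMIs against 0, 3 of 8 tested genes of this list were called higher, where 1.12% of all genes were. These were ATF3 (2.15), FOSL2 (2.71) and KLF6 (1.51), and the list median was 1.63.

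Of the interferon response and MHC class I genes 3 of 24 tested were called higher (0.873% of all genes) and 0 lower, with a median of 0.15, and 2, 2 and 1 without F1565, F1619 and F1711. GBP1, an interferon-induced GTPase, was at 530, 381 and 95.7 CPM against 170, 146 and 48.4 CPM (log2 fold change 1.36, SE 0.14, adjusted p = 8.53e-12). The peptide transporter TAP1 rose by 0.80 (adjusted p = 8.54e-05) and the transcription factor IRF1 by 0.69 (adjusted p = 0.00149). Without F1565 IRF1 was at 0.45 and not called (adjusted p = 0.326). Both genes were highest in F1565 and lowest in F1711 in each class, as IDO1, CIITA and GBP1 were. Other members were not called, with B2M at 0.46 (adjusted p = 0.0306), IFIT1 at 0.51 (0.0293) and UBA7 at -1.24 (0.0147, higher in 0 of 3 animals). With no low-count filter, and in the largest cluster alone, 1 gene of this list was called lower.

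Stress and metabolic lists held 0 to 2 calls each, where 0.873% of all genes tested were called higher and 0.605% lower. In the integrated and endoplasmic reticulum stress response 2 of 16 tested genes were called higher: WARS, the tryptophanyl-tRNA synthetase (0.66, adjusted p = 0.000442), and SLC3A2, the heavy chain of amino acid transporters (0.71, adjusted p = 0.00598). Neither was called with any of the animals left out. WARS rose in F1565 and F1619 (1441 and 588 against 710 and 340 CPM) and was level in F1711 (153 against 151 CPM). Of 9 chaperone genes tested under their symbol 1 was called, the small heat shock protein gene CRYAB (0.86, adjusted p = 2.84e-06). The chaperone gene HSP90AA1, listed as ENSCJAG00000033945 and so not among the 9, was also called higher (0.66, adjusted p = 0.00732). In the hypoxia response PFKFB3, which drives glycolysis, rose (0.79, adjusted p = 0.00042) and PDK1, which inhibits pyruvate dehydrogenase, fell by 0.55 (adjusted p = 0.0042), with 12 of 14 tested genes not called and a median of 0.02. The p53 targets (0 of 9 called, median 0.13), TGF-beta genes (0 of 15, 0.00), cell death regulators (0 of 11, 0.22), iron and oxidative stress genes (0 of 16, 0.26) and cell cycle genes (0 of 4, 0.06) had no calls. JAK2 was called among 14 NF-kappaB and cytokine genes (median 0.06). ABCA1 was called among 26 cholesterol and fatty acid genes (median -0.04), with HMGCS1 at -0.68 (adjusted p = 0.159). Among 22 matrix and adhesion genes (median 0.11) CD44 and the laminin chain LAMC1 were called (LAMC1 1.22, adjusted p = 1.98e-05). LAMC1 rose in F1565 and F1619 and not in F1711 (338, 123 and 67.2 against 67.7, 54.3 and 78.5 CPM), and without F1565 it was 0.51 and not called. None of 19 axon guidance genes was called (median -0.26).

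The IGF axis itself held 0 calls among 11 tested genes, with a median of -0.01. The receptor gene IGF1R was at -0.53 (SE 0.25, adjusted p = 0.325, lower in 3 of 3 animals), IGF2R at 0.59 (SE 0.22, adjusted p = 0.153), IGF1 at 0.64 (SE 0.41, adjusted p = 0.538) and the substrate gene IRS2 at -0.44 (SE 0.23, adjusted p = 0.379). Of the other binding proteins IGFBP2, IGFBP4 and IGFBP7 could be tested, at 0.11, -0.36 and 0.38 (adjusted p = 0.921, 0.77 and 0.597). For IGF1R, IGF2R, IGF1 and IGFBP4 the SE of 0.22 to 0.41 leaves room for a change of the size called in other genes, while INSR (0.06) and HTRA1 (-0.0051) had an SE of 0.12.

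Other rises by the size of the fold change were the signalling adaptors SHC4 (1.56, adjusted p = 8.17e-07) and SHC3 (1.49, adjusted p = 6.66e-07), which pass on signals of receptor tyrosine kinases. PPP1R2, an inhibitor of protein phosphatase 1 that the files list under the Ensembl identifier ENSCJAG00000013876, rose by 1.47 (adjusted p = 6.52e-09). For SHC4 the 3 animals were close to each other, at 87.6, 81.7 and 87.9 CPM in members and 21.3, 31.2 and 30.1 CPM in IGFBP3- nuclei.

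Most genes of mature oligodendrocytes had lower fitted levels in IGFBP3+ nuclei, though few passed the test. Of 20 tested mature myelin genes 0 were called higher and 2 lower (NINJ2, -0.50, adjusted p = 0.00785, and PPP1R14A, -0.64, adjusted p = 0.00805), 19 had a negative log2 fold change, and the median was -0.39, where 0.605% of all genes were called lower. Without F1565, F1619 or F1711 none was called, and the median was -0.29, -0.42 and -0.55. The count called lower was 9 in the largest cluster alone. It was 7 without the nuclei highest in other-cell markers, and 7 with no low-count filter. It was 0 with library size alone, no animal block, thinning, at most 2500 genes, and under DESeq2 (14 genes with an adjusted p). Of the authors' 5 oligodendrocyte markers, ST18 was called, from 3611, 4005 and 4578 to 1700.2, 3239.8 and 3953 CPM (-0.57, SE 0.14, adjusted p = 0.00841). Its fall was largest in F1565, and without that animal ST18 was at -0.31 and not called. DESeq2 did not call ST18 (adjusted p = 0.289). MBP (-0.46, adjusted p = 0.0342), MOBP (-0.43, 0.0432) and UGT8 (-0.35, 0.122) did not pass the limit and were lower in 3 of 3 animals. For MBP the levels were 1501, 2654 and 2854 CPM in members and 2604, 3185 and 3292 CPM in IGFBP3- nuclei, so the classes overlapped. Among 11 oligodendrocyte transcription factors (median -0.20) ST18 and CREB5 (-0.55, adjusted p = 0.0043) fell, while SOX10 was at 0.04, MYRF at -0.07 and OLIG2 at -0.26 (adjusted p = 0.948, 0.891 and 0.781). Newly formed oligodendrocyte genes had 0 of 8 called (median -0.31), and of 15 subtype genes (median -0.29) the glutamate receptor gene GRM3 was called, from 985, 865 and 841 to 434, 518 and 690 CPM.

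**Figure D3:**
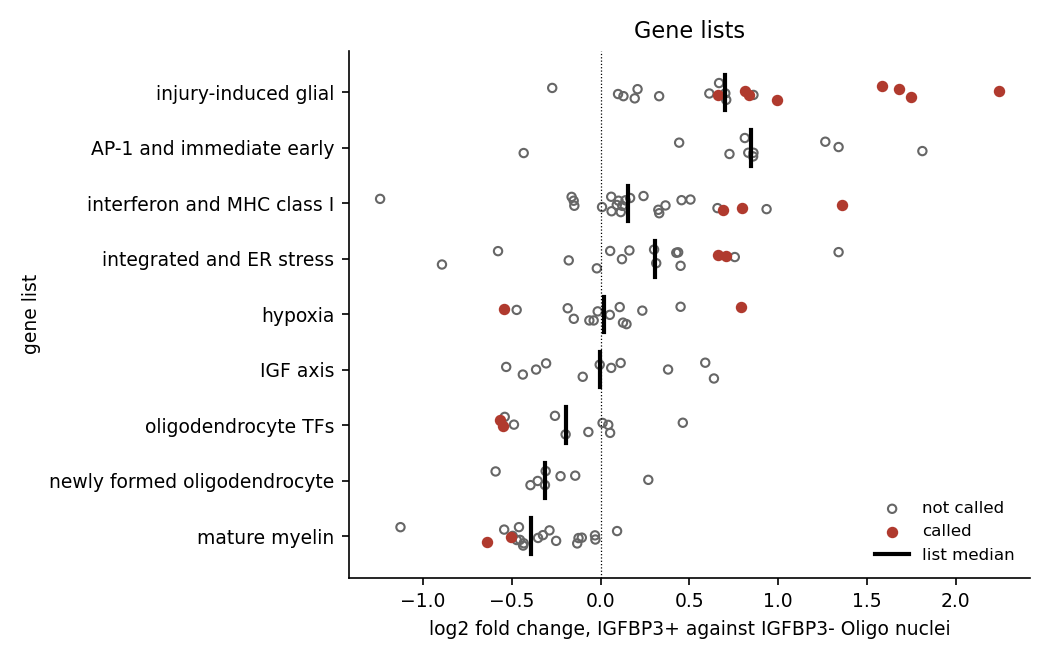
Each tested gene of 9 lists (y axis) by its log2 fold change in IGFBP3+ against IGFBP3- Oligo nuclei (x axis), with called genes filled in red and the list median as a black bar; vertical spread within a row has no meaning. Injury-induced glial genes have a median of 0.70 with 8 called higher, and mature myelin genes a median of -0.39 with 2 called lower.

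The 12 largest falls ran from -0.99 to -0.76 on the log2 scale. FGD4, which activates CDC42 and whose loss causes a demyelinating neuropathy, fell by 0.99 (SE 0.25, adjusted p = 0.00896), from 98.1, 57.0 and 59.4 to 47.8, 22.7 and 41.4 CPM. EYA2, a phosphatase and transcriptional cofactor, was at 271, 297 and 357 CPM against 477, 508 and 533 CPM, without overlap (-0.76, SE 0.13, adjusted p = 2.03e-05). AGMO, an enzyme that cleaves ether lipids, was at 179, 268 and 372 CPM against 438, 457 and 493 CPM, also without overlap (-0.81, SE 0.14, adjusted p = 2.03e-05). TMEM98, which binds the myelin regulator MYRF and blocks its cleavage, fell by 0.86 (adjusted p = 0.00606). The others were the adhesion protein PCDH7 (-0.92), the endocytosis protein REPS2 (-0.90), NGDN (-0.88), the Rac regulator CHN2 (-0.87), TRERF1 (-0.86), the cilium gene INTU (-0.81), the phosphatase PTPRT (-0.78) and the Rap activator RAPGEF5 (-0.77). Without F1711 none of these falls was called, and TRERF1 was at -0.52 without F1619.

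Nuclei with 2 or more IGFBP3 UMIs differed most from those with 0. Against the same IGFBP3- nuclei 210 of 8055 genes were called for 2 or more UMIs (2.61%), 90 higher (1.12%) and 120 lower (1.49%), and 10 of 8312 for exactly 1 UMI (0.12%, all higher). Both comparisons use the IGFBP3- nuclei, and the first has 128 members and the second 262, so they are given side by side. Neither was repeated with an animal left out. The 10 genes for exactly 1 UMI were NAV2 (0.84), IDO1 (1.92), STARD13 (0.69), ABCA1 (1.31), GBP1 (0.80), FNIP2 (0.59), SHC4 (1.26), SH3RF1 (0.60) and 2 genes without a symbol (log2 1.43 and 0.99), and some of them were named after their values were seen. IDO1 was at 2102, 127 and 262 CPM with 2 or more UMIs and at 283, 177 and 14.7 CPM with 1, so it was lower with more UMIs in F1619 and higher in the other 2 animals. CD44 was at 203, 289 and 139.5 CPM, then 72.5, 66.9 and 36.7 CPM with 1 UMI and 22.9, 45.5 and 30.9 CPM with 0, in the same order in every animal. IRF1, TAP1 and CD63 had 0.69, 0.80 and 0.99 for all members, 1.35, 1.34 and 1.87 for 2 or more UMIs, and -0.035, 0.36 and 0.11 for exactly 1.

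MBP and ST18 ran the other way over the 3 classes. MBP was at 751, 1919.8 and 2136 CPM in nuclei with 2 or more IGFBP3 UMIs, 2117, 3002 and 3157 CPM with 1, and 2604, 3185 and 3292 CPM with 0. ST18 was at 442, 2139 and 2999.7 CPM, 2733, 3762 and 4355 CPM, and 3611, 4005 and 4578 CPM. In F1565 both were lowest by far in the class of 2 or more UMIs, where IDO1 was highest. Against 0 UMIs, 9 of 19 mature myelin genes were called lower for 2 or more UMIs (median -0.97), where 1.49% of all genes were, and MBP was at -1.11, ST18 at -1.49 and MOBP at -0.996, the last not called (adjusted p = 0.0114). Whether these calls hold without F1565 was not tested.

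A direct comparison of 2 or more UMIs with exactly 1, within members and without the IGFBP3- nuclei, had 18 of 3243 tested genes called (0.555%), 14 higher and 4 lower. The rises took in S100A6 (1.98), EMP1 (2.29), CD63 (1.75), CRYAB (1.38), CD44 (1.84), ABCA1 (1.34), IRF1 (1.39) and WARS (1.09), and PDK1 fell by 1.25. IDO1 was at 1.92 (SE 0.49) and not called (adjusted p = 0.0529), and the oligodendrocyte markers MBP (-0.91, adjusted p = 0.0306) and ST18 (-1.25, 0.0395) were not called either. This count was 53, 31 and 114 without F1565, F1619 and F1711, and 130 with no filter on low counts.

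**Figure D4:**
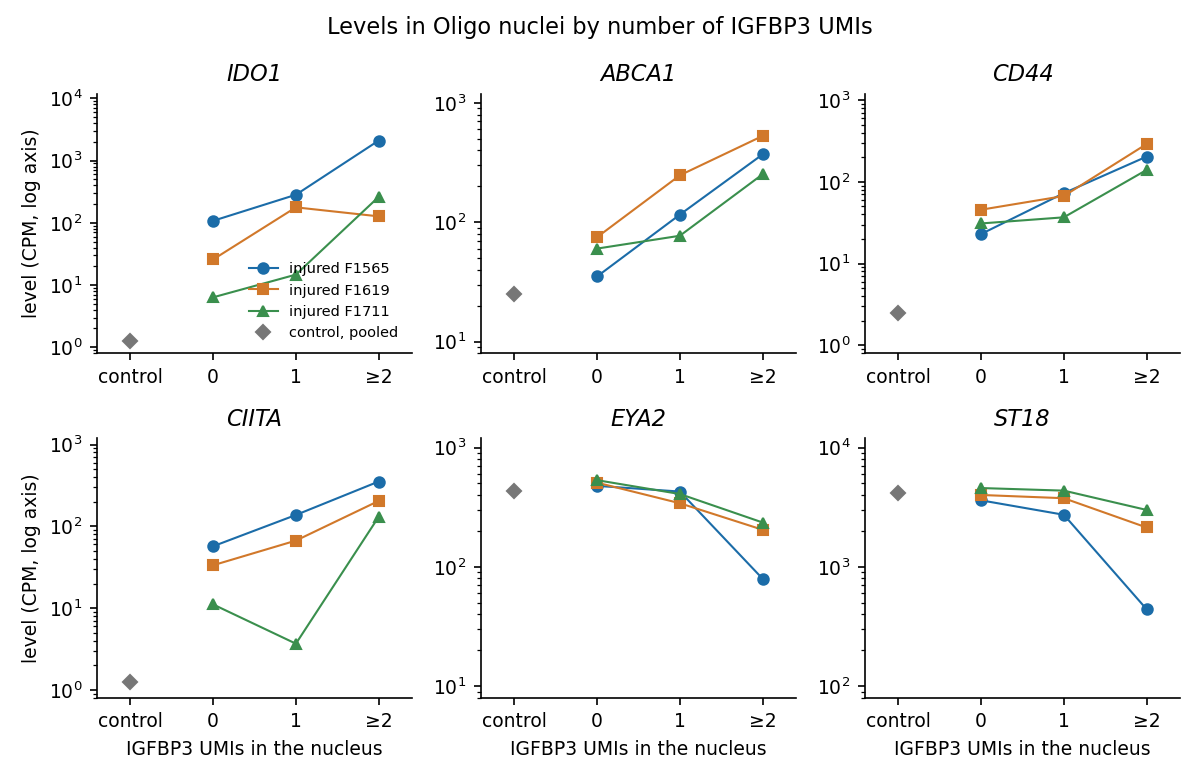
Level of 6 genes in CPM (y axis, log scale) in the pooled control Oligo nuclei and in injured Oligo nuclei with 0, 1 or 2 or more IGFBP3 UMIs (x axis), with 1 line per injured animal. CD44 is higher with 2 or more UMIs in every animal (139.5 to 289 CPM) than with 0 (22.9 to 45.5 CPM), and ST18 is lowest with 2 or more.

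By nucleus and at 1000 UMIs each, S100A6 was detected in 42.2% of nuclei with 2 or more IGFBP3 UMIs, 12.98% with 1 and 9.13% with 0, over all 3 animals. For IDO1 these shares were 24.2%, 7.63% and 3.58%, for ABCA1 26.6%, 10.3% and 4.36%, and for CIITA 19.5%, 3.82% and 3.42%. The thinned share of CIITA ran the other way in F1711, where its 15 UMIs in nuclei with 2 or more IGFBP3 UMIs left 0 of 36 detected, against 0.952% with 1 and 1.01% with 0. Without thinning its level in F1711 was 131 CPM with 2 or more, 3.67 CPM with 1 (1 CIITA UMI) and 11.1 CPM with 0. IDO1 in F1711 was detected in 8.33% with 2 or more, and in 0.952% with 1 against 1.21% with 0. Each of these genes was thus undetected in most members at this depth. EYA2 was detected in 13.3%, 29.8% and 36.5%.

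Control Oligo nuclei were set beside both classes as values, with no test. For the genes called higher, the control level lay below the IGFBP3- level of all 3 animals for 54 of the 74 listed in the control table (73.0%, where 34.4% of the 8537 tested genes listed there did), and above all 3 for 11. Of the 52 genes called lower it lay above all 3 for 12, where 42.1% of tested genes did, and below all 3 for 25. IDO1 had 1 UMI in the control sum (1.25 CPM), CIITA 1, CD44 2 and CD63 1, and EMP1, TNFRSF12A, S100A6 and TAP1 had 0. ABCA1 was at 24.9 CPM, CRYAB at 49.9, WARS at 23.7 and JAK2 at 49.9. MBP (3800.1 CPM) lay above the IGFBP3- levels of all 3 animals and ST18 (4124 CPM) within their range.

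The same split was made in other injured cell types to set the Oligo difference beside theirs. IGFBP3+ against IGFBP3- nuclei had 411 of 9112 genes called in OPC (4.51%) and 491 of 11570 in Endo (4.24%), 14 in Microglia (0.114%), 9 in astrocytes (0.0889%), 4 in ExN (0.0297%) and 1 in inhibitory neurons (0.00964%). These types differ in the number of IGFBP3+ nuclei, with 559 in OPC, 921 in Endo, 935 in Microglia and 1148 in ExN, so their counts are no measure of effect size. The difference between types was tested as an interaction. The Oligo difference was called different from that in ExN for 111 of 11589 genes (0.958%) and from that in Microglia for 75 of 11449 (0.655%), the 2 types with most IGFBP3+ nuclei. Without F1565 the 2 counts over all genes were 37 and 8, and without F1619 they were 10 and 48. The counts reuse the Oligo difference and overlap the genes called in Oligo alone. Of the 47 genes above ExN 43 were among the 75 higher in Oligo, and of the 64 below 26 were among the 52 lower. For Microglia these were 41 of 44 and 18 of 31. Genes named from here on were chosen for their Oligo fold change, which the interaction reuses, so their values are a description. IDO1 was at -0.25 (SE 0.09) in Microglia and -0.22 (SE 0.21) in ExN, and ABCA1 at 0.00 (SE 0.06) and -0.14 (SE 0.10), against 3.14 and 1.97 in Oligo.

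OPC came closer to Oligo for part of the genes. The Oligo difference was called different from the OPC difference for 54 of 9772 genes (0.553%), 32 above and 22 below. In OPC themselves 24 of the 75 were called higher, where 2.19% of all genes tested in OPC were, and 8 of 50 tested of the 52 lower, where 2.32% were. S100A6 rose by 1.41 in OPC (SE 0.15, adjusted p = 5.77e-07), TNFRSF12A by 2.33 (SE 0.25, adjusted p = 5.95e-07) and CD44 by 0.92 (SE 0.14, adjusted p = 5.52e-05), and the Oligo minus OPC differences of 0.19 (SE 0.26), -0.56 (SE 0.44) and 0.77 (SE 0.26) were not called (adjusted p = 0.893, 0.752 and 0.186). IDO1 rose in OPC too, by 1.68 (SE 0.22, adjusted p = 9.34e-06), and its rise in Oligo was larger by 1.48 (SE 0.29, adjusted p = 0.00333). CIITA was at 0.16 in OPC (SE 0.18, adjusted p = 0.704), and the Oligo difference was larger by 1.70 (SE 0.27, adjusted p = 0.000153). MBP fell by 1.83 in IGFBP3+ OPC (adjusted p = 1.98e-08) and was at -0.46 in IGFBP3+ Oligo, a difference of 1.38 on the log2 scale (SE 0.21, adjusted p = 8.48e-05). ST18 was at -2.16 in OPC, detected in too few OPC to be called there, with a difference of 1.60 (SE 0.30, adjusted p = 0.00214). It met the detection limit of the interaction through Oligo, so this difference rests on few OPC with the gene. The count of genes whose Oligo and OPC differences were called different was 37, 11 and 21 without F1565, F1619 and F1711.

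Endo nuclei, the other type with a high IGFBP3 level, shared some of the rises. In Endo 9 of the 75 genes higher in Oligo were called higher and 12 of the 52 lower genes were called lower, where 1.3% of all genes tested in Endo were called higher and 2.95% lower. IDO1 rose by 1.05 in IGFBP3+ Endo (SE 0.17, adjusted p = 0.00184), EMP1 by 1.33 (SE 0.28, adjusted p = 0.00849) and S100A6 by 0.84 (SE 0.12, adjusted p = 0.000937). The Oligo difference was called different from the Endo difference for 48 of 11760 genes (0.408%), 30 above and 18 below. For EMP1 and S100A6 the Oligo minus Endo differences of 0.86 (SE 0.46) and 0.70 (SE 0.26) were not called (adjusted p = 0.483 and 0.229), and for IDO1 the rise in Oligo was larger by 2.03 (SE 0.26). EYA2, which fell in Oligo, rose in Endo by 1.14 (SE 0.15, adjusted p = 0.000461). The count of 48 was 20, 15 and 33 without F1565, F1619 and F1711. No interaction was fitted for astrocytes or inhibitory neurons.

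**Figure D5:**
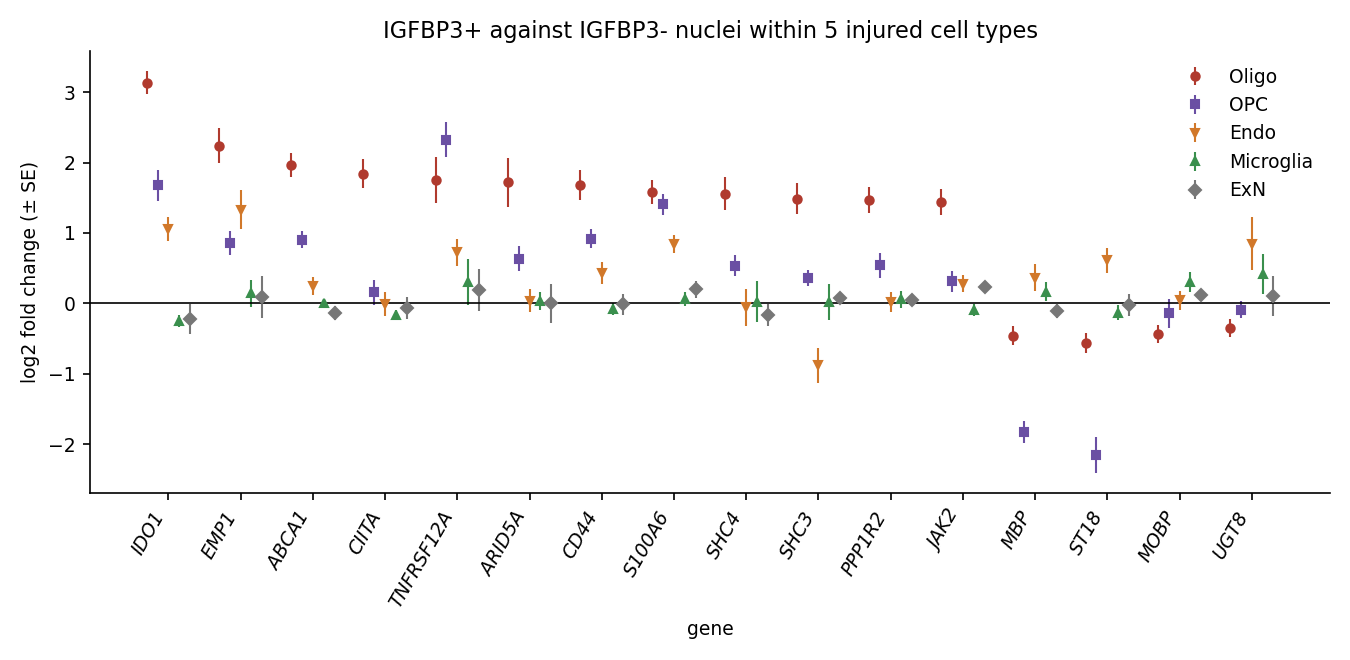
Log2 fold change (y axis, bars ± SE) of IGFBP3+ against IGFBP3- nuclei within injured Oligo, OPC, Endo, Microglia and ExN for the 12 largest rises in Oligo and 4 oligodendrocyte markers (x axis). IDO1 is at 3.14 in Oligo, 1.68 in OPC, 1.05 in Endo and -0.25 in Microglia, and MBP at -0.46 in Oligo and -1.83 in OPC.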

How the data were processed

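Nuclei of injured and control marmoset V1 were captured with 10x Genomics 3' v3 chemistry. The authors counted UMIs per gene and nucleus with cellranger (Cell Ranger 3.1.0 per the submitters' processing notes) on calJac3 with an Ensembl annotation, removed doublets of the injured cohort with Scrublet, filtered control nuclei on genes with Seurat, and named the cell type of each cluster. They deposited raw counts without normalization, and tables of nuclei with library, cluster, cell type and counts of UMIs and genes. Totals per nucleus were checked against those tables.

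Counts were summed per animal and class and tested by the quasi-likelihood method (glmQLFit and glmQLFTest of edgeR 4.0.16, R 4.3.3) with animal as a block, after filterByExpr and TMM scaling, with p-values adjusted over all genes tested by Benjamini-Hochberg. Levels are CPM of the sums, before TMM factors. The SE of a log2 fold change is its size divided by the square root of F. Where 2 cell types were compared, the interaction of class and type was tested with each animal and type as a block. The detection limit was then met by the highest class of either type. Nuclei of 1 animal are not replicates, so n is 3 animals. The test steps were run on simulated counts with means and spread taken from these sums. This checks the steps, and cannot show whether the p-values from 3 animals are of the right size. Thinning drew 1000 UMIs per nucleus without replacement, with classes taken from whole nuclei in the tests and from the thinned counts in shares. Sums, shares and intervals were computed in Python 3.11.15 (scipy 1.17.1, numpy 2.4.6, pandas 2.3.3).

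The members, gene lists and tests were chosen with earlier results of these data known. Genes named are the 12 largest rises and falls among called genes with a symbol that moved the same way in all 3 animals, called IGF axis genes, the authors' 5 oligodendrocyte markers and up to 4 called genes per list by smallest p. A few genes of this rule and of the lists are not reported here. Other list members, control levels and the genes called for 1 UMI or for 2 or more against 1 were added for context after their values were seen. Of 1086 tested Ensembl identifiers 570 had a symbol in a table of gene names. Gene lists were matched by listed name, so a member under an Ensembl identifier was not counted. Alternatives were RLE factors, library size alone, no low-count filter, DESeq2 1.42.0, no block, thinning, depth-matched IGFBP3- nuclei, 2 or more UMIs, no depth limit, at most 2500 genes per nucleus, leaving out the nuclei highest in markers of other cells, an adjusted p of 0.05 and leaving out each animal. After the data were seen, the largest cluster alone, exactly 1 UMI, 2 or more UMIs against 1, the splits within other cell types and the tests against OPC and Endo were added.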

Additional observations from a re-analysis of the deposited data

Results flagged for a closer look

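By the edgeR interaction test over 3 animals, the IGFBP3+ minus IGFBP3- difference in Oligo nuclei was called different for 111 genes from that in ExN, for 75 from that in Microglia, for 54 from that in OPC and for 48 from that in Endo. Astrocytes and inhibitory neurons were not tested this way. The interaction test reuses the Oligo difference, so these counts overlap the genes called in Oligo alone. The genes below were chosen for that difference, so their values are a description.

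The Oligo difference exceeded that in ExN by 3.36 for IDO1, 2.15 for EMP1, 2.10 for ABCA1 and 1.89 for CIITA on the log2 scale. It exceeded that in Microglia by 3.38 for IDO1, 2.10 for EMP1, 1.96 for ABCA1 and 1.999 for CIITA. Against OPC, the Oligo difference was larger by 1.48 for IDO1, 1.07 for ABCA1, 1.70 for CIITA and 1.14 for SHC3, and less negative by 1.38 for MBP and 1.60 for ST18.

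Oligo minus Endo differences were 2.03 for IDO1, 1.67 for ABCA1, 1.79 for CIITA, 2.32 for SHC3, 1.40 for PPP1R2 and 0.90 for GBP1. They were -1.55 for TMEM98, -2.74 for AGMO, -1.95 for EYA2 and -1.23 for ST18.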

How the results depend on the processing

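With 127 genes called in IGFBP3+ against IGFBP3- Oligo nuclei, the count moved by more than 1.5 times under DESeq2 (20), no animal block (0), thinning (44), at most 2500 genes (66), 2 or more UMIs (210), exactly 1 UMI (10), the largest cluster alone (202) and an adjusted p of 0.05 (246), and ran from 13 to 55 with 1 animal left out. Library size alone gave 94 calls, 70 higher and 24 lower, and moved the median of all genes from 0.00 to 0.06. The share of higher calls is thus 70 of 94 there and 75 of 127 with TMM factors. The counts for the differences from ExN, Microglia, OPC and Endo were 197, 155, 111 and 146 at an adjusted p of 0.05 and 23, 29, 23 and 32 after thinning. With 1 animal left out they ran from 10 to 125 (ExN), 8 to 64 (Microglia), 11 to 37 (OPC) and 15 to 33 (Endo). The count of 18 for 2 or more UMIs against 1 was 130 with no low-count filter and ran from 31 to 114 with 1 animal left out. The mean share of Oligo nuclei with an IGFBP3 UMI was 9.02% after thinning. Of the 43 genes given by the naming rule, IRF1 changed sign for exactly 1 UMI (-0.035), and no other did under any alternative run. For 2 or more UMIs SOX10 (-0.13), OLIG2 (0.44), INSR (-0.02) and IGFBP2 (-0.09), not called and outside that rule, changed sign. Of the 43 genes, 18, 17 and 34 lost their call without F1565, F1619 and F1711, 39 without the animal block, 12 of 25 with an adjusted p under DESeq2, 22 of 41 after thinning, and 2 without the nuclei highest in other-cell markers (TNFRSF12A and TMEM98). The cause of these shifts was not tested. Replicate numbers pair no samples between cohorts, since control is 1 pooled library. Most members held 1 IGFBP3 UMI, and the source of these single UMIs was not tested.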
